A study of Homo sapiens with 24 samples.

Results

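The epidermal growth factor receptor family was followed here through 10 transcripts of the 60675 genes counted: the receptors EGFR, ERBB2, ERBB3 and ERBB4, the ligands AREG, EREG, TGFA, HBEGF and NRG1, and the receptor inhibitor ERRFI1. The members were taken by gene symbol. They were measured by RNA-seq in 24 libraries of 2 human prostate cancer lines, LNCaP:C42 (LNCaP-derived, castrate resistant and still sensitive to the anti-androgen enzalutamide) and 22Rv1 (resistant to enzalutamide). Cells received a non-targeting siRNA pool (siSCR) or a pool against METTL3 (siMETTL3), the catalytic subunit of the complex that writes N6-methyladenosine on RNA. They were kept in medium with charcoal-stripped serum, which lacks most steroids, and were given ethanol vehicle or 1 nM of the synthetic androgen R1881. The 8 groups of line, siRNA and treatment held 3 libraries each. Each line stands for itself only, and nothing in the labels says that the 3 libraries of a group came from separate cultures, so that p-values measure the spread between these libraries, which may be technical.

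ERBB receptors are membrane tyrosine kinases that pair when a ligand of the epidermal growth factor family binds, and the pairs feed the RAS-ERK and PI3K-AKT cascades. ERBB2 has no known ligand and acts as a partner, whereas ERBB3 has little kinase activity of its own but docks PI3K well; ligands are made as membrane precursors that proteases such as ADAM17 release. ERRFI1 (MIG6) binds the kinase domain of active receptors and blocks it, and this receptor family is known as a parallel growth input in prostate cancer cells with low androgen.

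Promoter sequences are shown for 5 members because the results turn on them: AREG and EREG, which were near 0 in every LNCaP:C42 library and present in every 22Rv1 library, EGFR and HBEGF, whose androgen responses differed most between the lines, and ERRFI1, the member with the largest androgen response in both lines. Each window runs 5′ to 3′ from 250 bases before to 50 bases after a RefSeq transcript start on GRCh38.p14. RefSeq windows were matched for 8 of the 10 members, and ERBB3 and NRG1 had none. Capitals mark every match, on either strand, to the AGAACA hexamer that forms part of androgen response elements, the GC box GGGCGG, the cAMP response element TGACGTCA, the AP-1 site TGANTCA and the TATA box TATAAA.
AREG promoter, chr4:74444886-74445185, plus strand: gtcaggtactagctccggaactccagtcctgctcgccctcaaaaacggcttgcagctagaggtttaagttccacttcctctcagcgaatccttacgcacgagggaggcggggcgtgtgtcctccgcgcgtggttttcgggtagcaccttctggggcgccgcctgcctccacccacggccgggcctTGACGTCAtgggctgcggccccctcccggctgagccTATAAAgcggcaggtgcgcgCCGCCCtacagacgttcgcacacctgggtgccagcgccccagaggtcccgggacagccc
EREG promoter, chr4:74364895-74365194, plus strand: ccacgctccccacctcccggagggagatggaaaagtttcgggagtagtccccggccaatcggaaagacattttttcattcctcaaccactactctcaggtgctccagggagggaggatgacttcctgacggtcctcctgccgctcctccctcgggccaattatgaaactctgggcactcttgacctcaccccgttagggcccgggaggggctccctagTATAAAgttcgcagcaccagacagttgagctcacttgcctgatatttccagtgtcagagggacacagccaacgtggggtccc
EGFR promoter, chr7:55018767-55019066, plus strand: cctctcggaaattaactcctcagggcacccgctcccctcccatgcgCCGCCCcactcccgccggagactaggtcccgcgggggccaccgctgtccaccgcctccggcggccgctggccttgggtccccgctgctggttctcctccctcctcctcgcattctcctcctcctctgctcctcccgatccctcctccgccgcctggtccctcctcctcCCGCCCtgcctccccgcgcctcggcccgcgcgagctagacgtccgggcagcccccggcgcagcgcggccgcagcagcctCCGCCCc
HBEGF promoter, chr5:140346554-140346853, minus strand: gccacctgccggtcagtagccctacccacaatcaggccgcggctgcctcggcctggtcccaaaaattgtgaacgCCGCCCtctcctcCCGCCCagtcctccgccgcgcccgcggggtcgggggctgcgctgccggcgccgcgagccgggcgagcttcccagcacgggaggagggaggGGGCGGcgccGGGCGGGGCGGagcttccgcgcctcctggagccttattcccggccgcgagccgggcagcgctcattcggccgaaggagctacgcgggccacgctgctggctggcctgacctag
ERRFI1 promoter, chr1:8026260-8026559, minus strand: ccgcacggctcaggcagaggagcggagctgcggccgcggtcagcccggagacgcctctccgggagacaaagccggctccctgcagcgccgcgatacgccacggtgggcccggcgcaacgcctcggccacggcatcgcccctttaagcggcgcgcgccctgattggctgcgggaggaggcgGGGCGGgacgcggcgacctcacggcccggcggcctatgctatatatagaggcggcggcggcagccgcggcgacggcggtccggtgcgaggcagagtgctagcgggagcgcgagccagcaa
AREG and EREG lie on the same strand within a cluster of ligand genes on chromosome 4, and both windows held 1 TATAAA, which 11.5% of all 35116 RefSeq promoter windows of that length held. The AREG window also held 1 TGACGTCA, found in 1.85% of windows, and 1 GC box, found in 45% of windows. The GC box occurred 3 times in the EGFR window, 5 times in the HBEGF window, where a pair of them overlapped, and 1 time in the ERRFI1 window. AGAACA, in 14.8% of windows, and TGANTCA, in 7.71%, were in none of the 5 windows shown, and a pair of AGAACA hexamers facing each other 3 bases apart was in 0.00285% of all windows and in none of these. EGFR has another RefSeq window further downstream, not shown here, which held 1 AGAACA, as did the windows of ERBB2 and ERBB4 and 1 of the 2 windows of TGFA. These matches describe letters in a window and nothing about factor binding.

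The files' gene models place EGFR at chr7:55019021-55256620, ERBB2 at chr17:39687914-39730426, ERBB3 at chr12:56079857-56103505 and ERBB4 at chr2:211375717-212538841. Among the ligands, AREG lies at chr4:74445134-74455009, EREG at chr4:74365143-74388751, TGFA at chr2:70447280-70554193 and HBEGF at chr5:140332843-140346631, and the inhibitor ERRFI1 lies at chr1:8004404-8026308. All counts are over exons. ERBB2 shared 7.41% of its exon bases with PGAP3 and MIEN1, EGFR 1.44% with its antisense gene EGFR-AS1 and ERBB3 0.358% with an unnamed gene; where such genes overlap, reads without strand cannot be told apart. The other 7 members shared none.

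METTL3, the targeted gene, was lower in siMETTL3 than in siSCR libraries in every condition: between 17.5 and 22.8 CPM (read counts scaled to the size of their library) against 26.5 to 35.9 in LNCaP:C42, and between 21.2 and 25.3 against 45.4 to 51.6 in 22Rv1. Assigned counts ran from 15716224 to 21306019 per library, with a median of 17671721. All 8 luminal prostate markers tested, KRT8 and KRT18 among them, were at 1 CPM or more in both lines, and 0 of 3 basal and 0 of 5 immune markers were. Of the 6 fibroblast markers, COL1A1 reached 1 CPM in LNCaP:C42 (57.2 CPM), and COL1A1 and LUM did in 22Rv1 (21.3 and 2.51 CPM). Of the 3 endothelial markers, VWF did in LNCaP:C42 (5.08 CPM) and 0 did in 22Rv1. The part of these markers in the results was not tested. R1881 raised the androgen targets FKBP5, KLK3 and TMPRSS2 in LNCaP:C42, whereas in 22Rv1 FKBP5 was the only target of these 3 called with siSCR and KLK3 stayed at 6.58 ± 0.289 CPM with vehicle and 6.57 ± 0.72 CPM with R1881 (SD, n = 3). A pair of LNCaP:C42 libraries stood furthest apart from their groups, siSCR with R1881 replicate 1 and siMETTL3 with vehicle replicate 1. Their counts differed from those of the other 2 libraries of their group by 30.4 to 30.8 and by 38.5 to 41.7 times the variance of sampling noise, against 3.05 and 4.11 between those other 2. Member changes and pathway genes that rest on this pair are given with and without them. Smaller gaps of this kind were seen in other groups. With vehicle they were 16.2 and 17.6 against 3.78 for 22Rv1 siMETTL3 replicate 1 and 16.7 and 11.8 against 3.5 for 22Rv1 siSCR replicate 3. For LNCaP:C42 siSCR replicate 3 with vehicle they were 10.3 and 10.7 against 3.35. For LNCaP:C42 siMETTL3 replicate 3 with R1881 they were 8.31 and 14 against 5.61.

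At rest, that is with siSCR and vehicle, the lines differed most in the ligands AREG and EREG and least in ERBB3 and the ligand TGFA. Levels are CPM after trimmed-mean (TMM) scaling over the 24 libraries, and differences are log2 fold changes of 22Rv1 over LNCaP:C42. A gene was called where edgeR's quasi-likelihood F-test, with p-values adjusted by the Benjamini-Hochberg method over all genes tested, gave an adjusted p under 0.05 and the change was at least 1.5-fold. Of the 6 members with counts in both lines, 4 were called, ERRFI1 higher and EGFR, ERBB2 and HBEGF lower in 22Rv1, beside 59.2% of all 19437 genes tested, 31.2% higher and 27.9% lower. Their share is close to that of all genes, but the bases are unlike. All genes were not cut to those with counts in both lines. ERBB4, AREG and EREG passed the filter on low counts only through 22Rv1, and are given as ratios of counts with no test. NRG1 was too low to test. In bulk RNA, fewer cells that express a gene and less RNA per cell cannot be told apart. Ranges over libraries are also compared below, and the share of all genes with ranges apart was not counted.

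**Figure D1:**
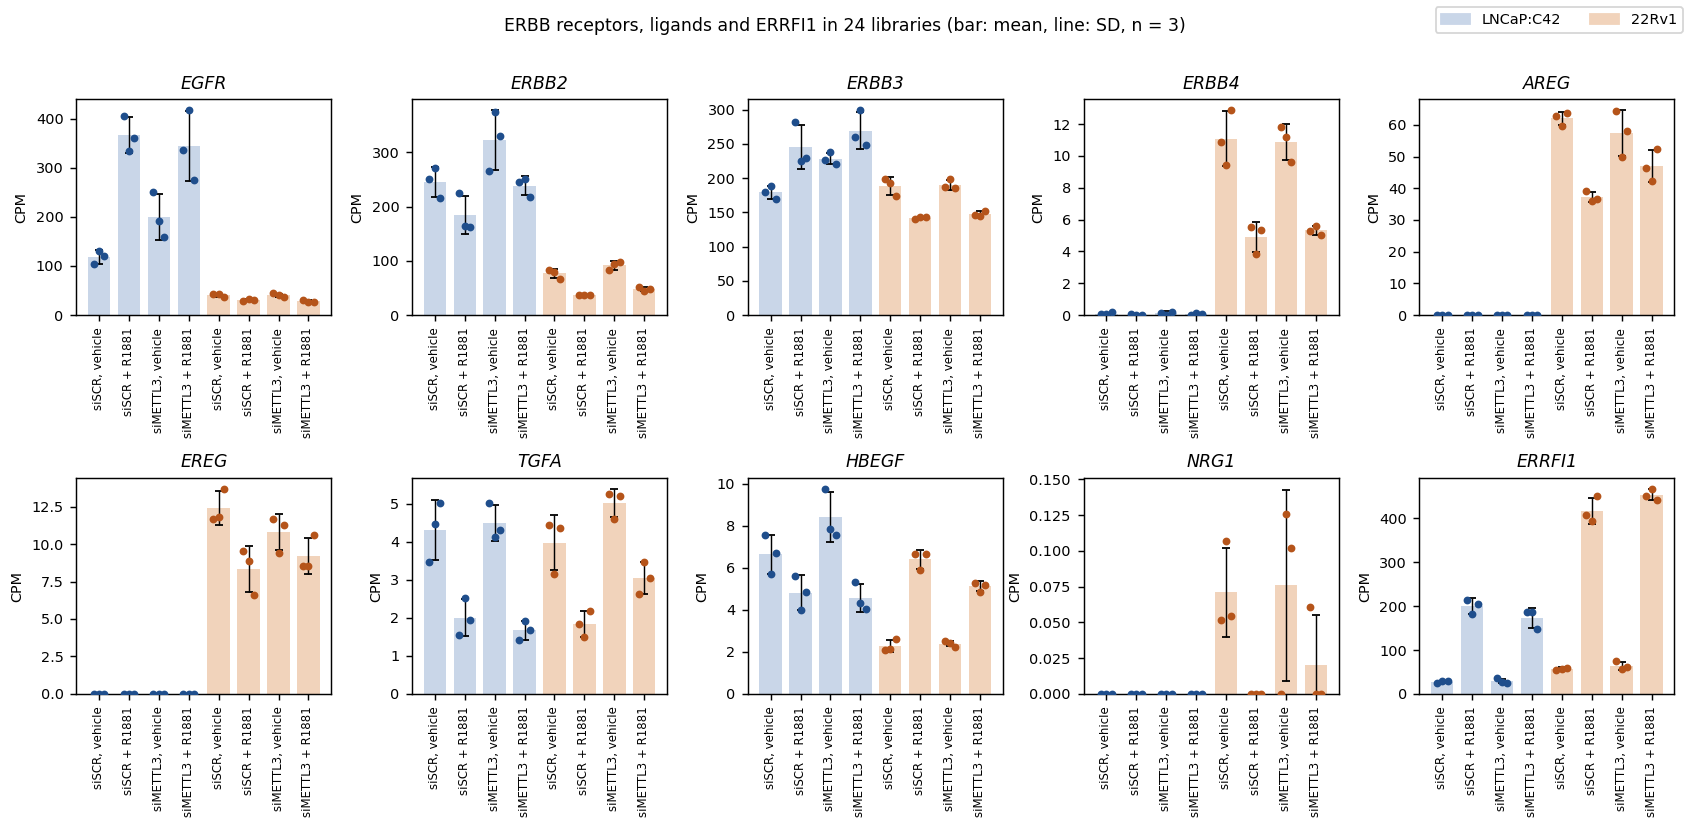
CPM of the 10 members in each of the 24 libraries (y axis, linear and starting at 0, with its own range in each panel) by siRNA and treatment (x axis); points are libraries, bars means and lines SD (n = 3), with LNCaP:C42 in blue and 22Rv1 in orange. ERRFI1 stands higher with R1881 in both lines, EGFR only in LNCaP:C42, and AREG, EREG and ERBB4 lie at or near 0 in LNCaP:C42.

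Among the receptors, EGFR, the receptor of AREG, TGFA and EGF, had 104, 131 and 121 CPM in the 3 LNCaP:C42 libraries and 42.1, 42.4 and 37 CPM in the 3 22Rv1 libraries. ERBB2, the ligandless partner, had 250, 271 and 215 CPM against 83.7, 79.4 and 67.3 CPM. Both receptors were higher in every LNCaP:C42 library than in any 22Rv1 library. Log2 differences were -1.54 ± 0.14 (SE, adjusted p = 3.38e-10) for EGFR and -1.67 ± 0.13 (adjusted p = 5.48e-12) for ERBB2. ERBB3, which docks PI3K, had 180, 189 and 170 CPM in LNCaP:C42 and 199, 193 and 174 CPM in 22Rv1. The ranges overlapped and the difference of 0.08 did not pass the test (95% interval -0.10 to 0.25, adjusted p = 0.432). Other settings of edgeR and DESeq2 gave 0.0405 to 0.2264 for ERBB3, under 1.5-fold, with adjusted p from 0.0175 to 0.742. ERBB4, a neuregulin receptor, had 1, 1 and 3 counts in the LNCaP:C42 libraries and 10.9, 9.46 and 12.9 CPM in 22Rv1. Over the 12 libraries of each line it reached 1847 counts in 22Rv1 against 15 in LNCaP:C42, a ratio of 114 (95% counting interval 68.9 to 204).

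The ligand repertoire was close to exclusive between the lines for AREG and EREG, both EGFR ligands and, for EREG, also an ERBB4 ligand. AREG had 62.9, 59.7 and 63.7 CPM in 22Rv1 at rest and 1, 0 and 0 counts in LNCaP:C42. Over all libraries it had 11556 counts in 22Rv1 and 5 in LNCaP:C42, a ratio of 2139 (95% counting interval 916 to 6589). EREG had 11.7, 11.8 and 13.7 CPM in 22Rv1 and no count in any of the 12 LNCaP:C42 libraries. With 3 counts over the LNCaP:C42 group as the floor that a count of 0 allows, EREG was at least 710-fold higher in 22Rv1 over all libraries and at least 223-fold higher at rest. AREG and EREG gave no overlap between lines under any siRNA or treatment. HBEGF, a heparin-binding ligand of EGFR and ERBB4, went the other way, with 7.55, 5.69 and 6.71 CPM in LNCaP:C42 against 2.11, 2.14 and 2.61 CPM in 22Rv1 (log2 difference -1.53 ± 0.17, adjusted p = 1.01e-08). TGFA, an EGFR ligand often made by the cells that respond to it, had 3.47, 4.46 and 5.03 CPM in LNCaP:C42 and 4.43, 3.15 and 4.35 CPM in 22Rv1. These TGFA ranges overlapped (log2 difference -0.11, 95% interval -0.51 to 0.29, adjusted p = 0.614). NRG1, a ligand of ERBB3 and ERBB4, had no count in LNCaP:C42 and 10 counts over the 12 22Rv1 libraries, of which at most 3 were in 1 library. Counting intervals and floors cover counting error only.

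ERRFI1, the inhibitor, had 24.6, 28.5 and 30.1 CPM in LNCaP:C42 and 53.4, 57.9 and 60.1 CPM in 22Rv1 at rest. Every 22Rv1 library lay above every LNCaP:C42 library (log2 difference 1.05 ± 0.12, adjusted p = 2.05e-08).

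Between genes, levels were compared per kilobase of the exon length that the count files give. In LNCaP:C42 at rest the order was ERBB2 (23.7 ± 2.74 CPM per kb, SD), ERBB3 (20.7 ± 1.1), EGFR (9.16 ± 1.07), ERRFI1 (6.62 ± 0.669), HBEGF (2.2 ± 0.308) and TGFA (0.87 ± 0.159), with the ranges of ERBB2 and ERBB3 overlapping. With the length of the MANE Select transcript these 2 lay apart, ERBB2 at 53.8 (47.1 to 59.4 over the libraries) and ERBB3 at 32 (30.2 to 33.6) CPM per kb. In 22Rv1 at rest AREG came out highest of the 10 members (37.7 ± 1.28 CPM per kb), before ERBB3 (21.8 ± 1.52), ERRFI1 (13.7 ± 0.814), ERBB2 (7.44 ± 0.825), EGFR (3.13 ± 0.234) and EREG (2.17 ± 0.199). ERBB4 (0.852 ± 0.132), TGFA (0.802 ± 0.144) and HBEGF (0.758 ± 0.0927) followed there with overlapping ranges. Of the ligands that are no members, EGF, the founding ligand of the family, had 2.61 CPM per kb in LNCaP:C42 against 0.0986 in 22Rv1, and BTC (betacellulin) 0.0381 against 6.72. At rest each line carried a different set of leading ligands, EGF and HBEGF in LNCaP:C42 and AREG, BTC and EREG in 22Rv1. With siSCR and R1881, HBEGF (2.12 CPM per kb) stood above EREG (1.46) in 22Rv1.

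**Figure D2:**
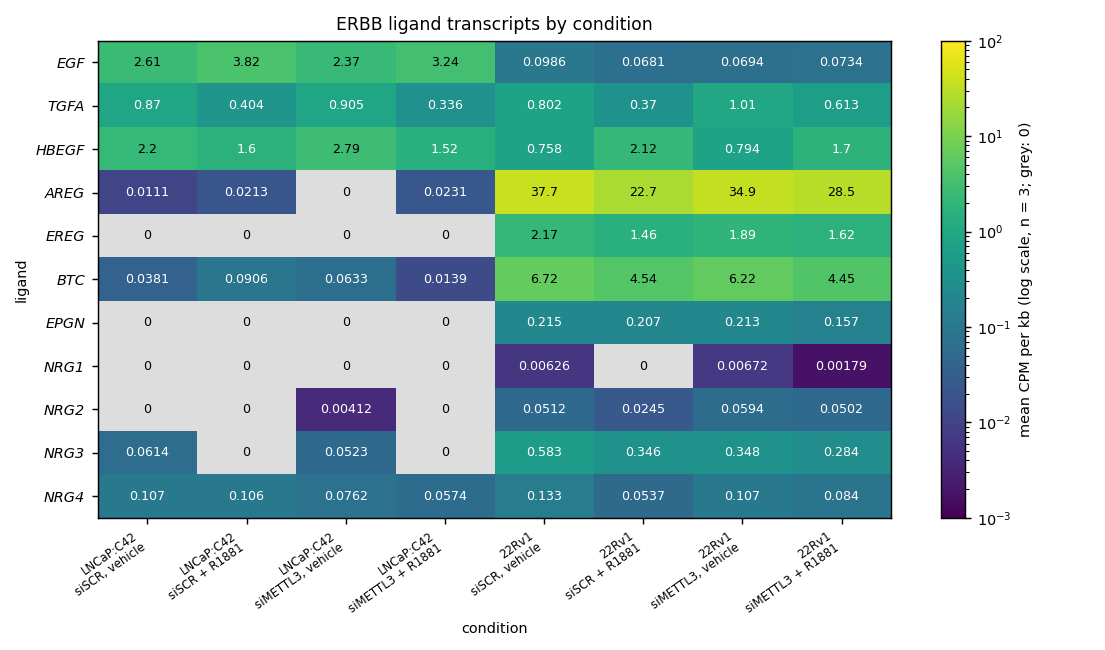
Mean CPM per kb of exon length for 11 ERBB ligands (rows) in the 8 conditions (columns, n = 3 libraries each), on a logarithmic colour scale with grey for 0. AREG, EREG, BTC and EPGN are at or near 0 in the LNCaP:C42 columns, whereas EGF is above 2 there and under 0.1 in every 22Rv1 column.

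The next comparison asks what R1881 did to the family in LNCaP:C42. With siSCR, R1881 raised ERRFI1 and EGFR and lowered TGFA, 3 of the 6 members tested; 15.1% of all 16435 genes tested were called. A total of 5 of the 6 had an adjusted p under 0.05 whatever the fold, as did 24.8% of all genes. ERBB4, AREG, EREG and NRG1 were too low to test in this line. EGFR stood at 104, 131 and 121 CPM with vehicle and at 406, 334 and 360 CPM with R1881, with no overlap. It rose 3.07-fold (log2 change 1.62 ± 0.17, adjusted p = 3.76e-06), and by 1.55 without R1881 replicate 1 (adjusted p = 1.32e-05). ERBB3 had 180, 189 and 170 CPM with vehicle and 282, 225 and 229 CPM with R1881. Its log2 change of 0.44 ± 0.10 passed the adjusted p of 0.05 (0.00482) but stayed under 1.5-fold, as it did without R1881 replicate 1 (0.35, adjusted p = 0.0174). ERBB2 had 250, 271 and 215 CPM with vehicle against 224, 164 and 163 CPM with R1881, ranges that overlapped. Its log2 change was -0.43 ± 0.14 (adjusted p = 0.037), likewise under 1.5-fold, and the adjusted p ran from 0.00567 to 0.15 when each library was left out. The lowest of these came without R1881 replicate 1, at a change of -0.58.

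TGFA had 3.47, 4.46 and 5.03 CPM with vehicle and 1.54, 2.52 and 1.95 CPM with R1881, with no overlap, and the log2 change was -1.12 ± 0.23 (adjusted p = 0.00227). Without R1881 replicate 1 it was -0.95 (adjusted p = 0.0114). HBEGF had 7.55, 5.69 and 6.71 CPM with vehicle and 5.63, 4 and 4.85 CPM with R1881, without overlap. The log2 change of -0.47 ± 0.18 did not pass (adjusted p = 0.073) but was called with library size alone as the scaling (-0.59, adjusted p = 0.0223), and without R1881 replicate 1 it was -0.57 (adjusted p = 0.0499), under 1.5-fold. ERRFI1 rose from 24.6, 28.5 and 30.1 CPM to 214, 181 and 206 CPM, the largest change of the members at 7.17-fold (log2 2.84 ± 0.14, adjusted p = 1.02e-09), and by 2.81 without R1881 replicate 1. The tested members had a median log2 change of 0.01 against -0.03 over all genes, with members moving in both directions.

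With siMETTL3 in LNCaP:C42, R1881 changed 4 of the 6 members tested, against 10.6% of all genes. EGFR rose from 250, 191 and 159 CPM to 336, 418 and 276 CPM (1.73-fold, log2 0.79 ± 0.16, adjusted p = 0.00332), and the change was 0.97 without vehicle replicate 1 (adjusted p = 0.000228). Its vehicle library of replicate 1 was the highest of the 3. TGFA fell from 5.02, 4.13 and 4.32 CPM to 1.41, 1.92 and 1.68 CPM (log2 -1.41 ± 0.24, adjusted p = 0.000556), and HBEGF from 9.78, 7.87 and 7.58 CPM to 5.33, 4.35 and 4.05 CPM (-0.87 ± 0.18, adjusted p = 0.00332). ERRFI1 rose from 35.5, 28.1 and 24.8 CPM to 187, 186 and 147 CPM (5.93-fold, log2 2.57 ± 0.14, adjusted p = 3.78e-09). None of these 4 genes had overlapping ranges between vehicle and R1881, and the share of all genes without overlap was not counted. Without vehicle replicate 1, TGFA gave -1.33, HBEGF -0.75 and ERRFI1 2.72, all still called. ERBB2 gave -0.43 ± 0.14 (adjusted p = 0.0474), under 1.5-fold, and ERBB3 0.25 ± 0.10 (adjusted p = 0.111).

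In 22Rv1 the androgen response of the receptors was downward. With siSCR, R1881 changed 7 of 9 members tested, 2 higher and 5 lower, against 13.8% of all 17865 genes tested, 4.19% higher and 9.64% lower. All 9 had an adjusted p under 0.05, as did 33% of all genes. ERBB2 went from 83.7, 79.4 and 67.3 CPM to 36.9, 37.2 and 36.4 CPM, a 2.1-fold fall (log2 -1.07 ± 0.10, adjusted p = 1.18e-08). ERBB4 went from 10.9, 9.46 and 12.9 CPM to 5.54, 3.84 and 5.32 CPM, a 2.28-fold fall (-1.19 ± 0.15, adjusted p = 3.01e-06). EGFR had 42.1, 42.4 and 37 CPM with vehicle against 27.8, 32.4 and 31 CPM with R1881, and ERBB3 had 199, 193 and 174 CPM against 140, 143 and 143 CPM. All 4 receptors were lower in each R1881 library than in any vehicle library, but EGFR (-0.43 ± 0.10, adjusted p = 0.00159) and ERBB3 (-0.42 ± 0.07, adjusted p = 6.79e-05) stayed under 1.5-fold. The share of all genes with ranges apart in this way was not counted.

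Among the ligands in 22Rv1, AREG fell from 62.9, 59.7 and 63.7 CPM to 39.2, 36.1 and 36.7 CPM (1.68-fold, log2 -0.75 ± 0.09, adjusted p = 2.45e-06). EREG had 11.7, 11.8 and 13.7 CPM with vehicle and 9.52, 8.84 and 6.6 CPM with R1881 (-0.59 ± 0.14, adjusted p = 0.0027), which lies at the 1.5-fold line: without vehicle replicate 3 the change was -0.52 and without R1881 replicate 3 it was -0.45. TGFA fell from 4.43, 3.15 and 4.35 CPM to 1.83, 1.5 and 2.18 CPM (-1.12 ± 0.21, adjusted p = 0.000217). HBEGF was the only ligand of the 4 tested that rose, from 2.11, 2.14 and 2.61 CPM to 6.67, 5.89 and 6.65 CPM (2.78-fold, log2 1.47 ± 0.16, adjusted p = 3.54e-07). None of the 4 ligands had overlapping ranges, and the share of all genes without overlap was not counted. The inhibitor ERRFI1 rose from 53.4, 57.9 and 60.1 CPM to 408, 394 and 451 CPM (7.25-fold, log2 2.86 ± 0.09, adjusted p = 2.58e-16). The median log2 change of the tested members was -0.59 against 0.00 over all genes.

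With siMETTL3 in 22Rv1, 5 of 9 members were called, against 13.5% of all genes, and 8 had an adjusted p under 0.05, as did 33.1% of all genes. ERRFI1 (2.80 ± 0.09) and HBEGF (1.07 ± 0.16) rose and ERBB2 (-0.95 ± 0.09), ERBB4 (-1.05 ± 0.15) and TGFA (-0.74 ± 0.19) fell on the log2 scale, with adjusted p between 4.01e-16 and 0.00379. AREG had 64.4, 49.9 and 58.2 CPM with vehicle and 46.3, 42.3 and 52.5 CPM with R1881, ranges that overlapped here (-0.31 ± 0.09, adjusted p = 0.0127, under 1.5-fold). EREG overlapped as well, with 11.7, 9.43 and 11.3 CPM against 8.53, 8.54 and 10.6 CPM (-0.24 ± 0.14, adjusted p = 0.198). EGFR had 44, 40.4 and 37.3 CPM against 30.7, 26 and 26.7 CPM, and its change of -0.57 ± 0.10 (adjusted p = 8.67e-05) passed 1.5-fold under library size alone (-0.63) and without vehicle replicate 3 (-0.63) or R1881 replicate 1 (-0.65). ERBB3 gave -0.40 ± 0.07 (adjusted p = 0.000138), under 1.5-fold.

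**Figure D3:**
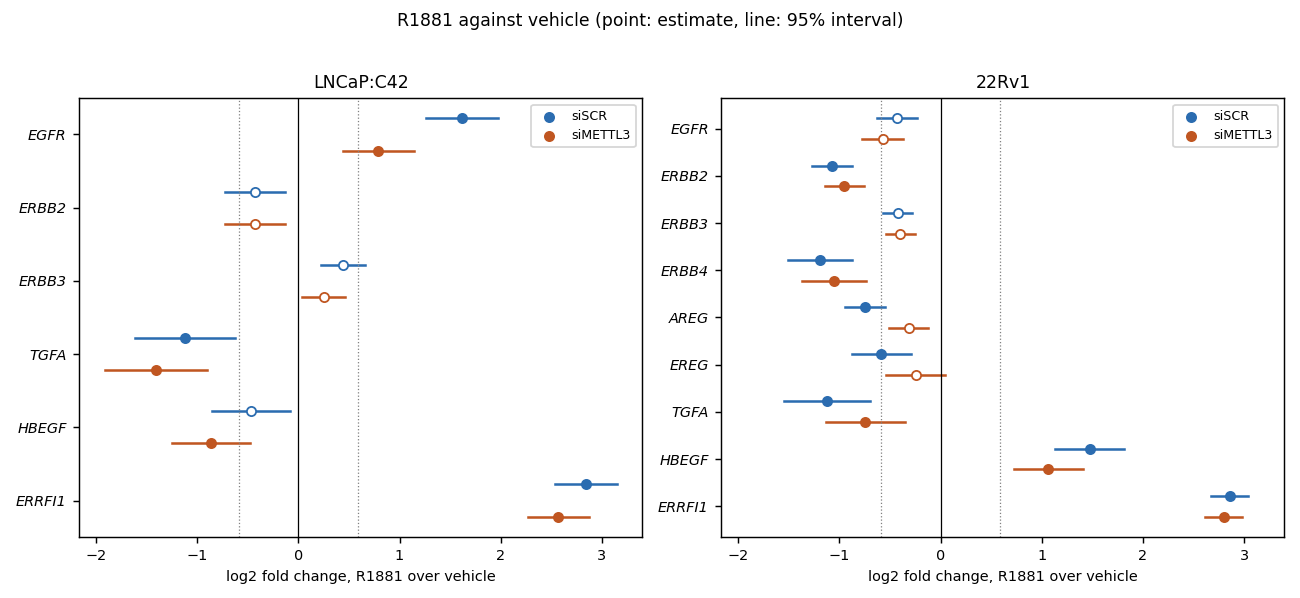
Log2 fold change of R1881 over vehicle (x axis) for the members tested in each line (rows), with 95% intervals from edgeR's quasi-likelihood fit, siSCR in blue and siMETTL3 in orange; filled points were called (adjusted p under 0.05 and at least 1.5-fold) and dotted lines mark 1.5-fold. ERRFI1 lies between 2.57 and 2.86 in all 4 comparisons, whereas EGFR and HBEGF lie on opposite sides of 0 in the lines.

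Whether the lines responded differently was tested directly, as the R1881 response in 22Rv1 minus that in LNCaP:C42 with siSCR, and any adjusted p under 0.05 counted, whatever the fold. A total of 4 of the 6 members with counts in both lines passed, against 16.8% of all genes, which were not cut to those with counts in both lines. EGFR rose in LNCaP:C42 and was lower with R1881 in 22Rv1, a difference of -2.05 ± 0.20 on the log2 scale (adjusted p = 3.19e-08). HBEGF rose in 22Rv1 and had lower values with R1881 in LNCaP:C42, a difference of 1.94 ± 0.23 (adjusted p = 8.73e-07). ERBB3 differed by -0.87 ± 0.12 (adjusted p = 8.27e-06), with its values higher under R1881 in LNCaP:C42 and lower in 22Rv1, and ERBB2 by -0.65 ± 0.18 (adjusted p = 0.0119), with its values lower in both lines and more so in 22Rv1. Without the LNCaP:C42 R1881 library that stood apart, these differences were -2.04, 1.99, -0.83 and -0.55, and all 4 passed. For ERRFI1 the difference was 0.01 (95% interval -0.34 to 0.36) and for TGFA it was 0.00 (95% interval -0.60 to 0.59), both with an adjusted p of 1; the TGFA interval reaches past a 1.5-fold difference. The responses of AREG, EREG and ERBB4 could not be compared because LNCaP:C42 had next to no counts.

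With R1881 the lines lay further apart in EGFR and ERBB2 than at rest, and ERBB3, which did not pass the test at rest in the main fit, was lower in 22Rv1. In 22Rv1 over LNCaP:C42 the log2 difference was -3.59 ± 0.15 for EGFR (12.1-fold, adjusted p = 2.87e-17), -2.32 ± 0.13 for ERBB2 (adjusted p = 1.12e-14) and -0.79 ± 0.09 for ERBB3 (adjusted p = 5.51e-09), and with ERRFI1, which was higher in 22Rv1, these made 4 called of the 6 members with counts in both lines, close to the 60.1% of all genes. Here too all genes were not cut to those with counts in both lines. HBEGF, which was higher in LNCaP:C42 at rest, now gave 0.40 ± 0.16 in favour of 22Rv1 (adjusted p = 0.0241), under 1.5-fold. With library size alone as the scaling, ERBB3 came to -0.58, under 1.5-fold, and HBEGF to 0.62, which was called; that scaling moved the median of all genes in this comparison from 0.0852 to 0.294.

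Taken as a sum per kilobase, the 4 receptors came to 53.6 ± 4.24 CPM per kb with vehicle and 74.4 ± 9.76 with R1881 in LNCaP:C42 siSCR, and to 33.2 ± 2.47 and 22.7 ± 0.357 in 22Rv1 siSCR (SD, n = 3). With siSCR the ranges of vehicle and R1881 did not overlap in either line. The LNCaP:C42 R1881 library that stood apart had the highest sum of its group, 85.6, and the lowest EGFR share, 36.6%. In LNCaP:C42 the EGFR share of that sum went from 17.1% (15.1% to 18.8% over the libraries) to 38.1% (36.6% to 39.6%), the ERBB2 share from 44.2% to 23.8%, and the ERBB3 share was 38.7% and 38.1%. In 22Rv1 ERBB3 made up most of the sum, 65.6% (65.3% to 65.9%) with vehicle and 72.2% (72% to 72.4%) with R1881, while ERBB2 went from 22.4% to 15.8%, EGFR from 9.42% to 10.3% and ERBB4 from 2.59% to 1.66%. With siMETTL3 the sum in LNCaP:C42 was 73.1 (69.7 to 78.6 over the libraries) with vehicle and 80.7 (71.1 to 91.2) with R1881. Those ranges overlapped. In 22Rv1 siMETTL3 it was 34.9 (34 to 36.1) and 24.3 (23.6 to 24.7), without overlap. With siMETTL3 the EGFR share in LNCaP:C42 was 27.1%, 18.8% and 17.7% in the vehicle libraries, of which the first stood apart, and 32.5%, 35.4% and 29.9% in the R1881 libraries. These shares depend on the gene length used: with the MANE Select transcript length, EGFR went from 12.3% to 30.7%, ERBB2 from 54.9% to 33.1% and ERBB3 from 32.8% to 36.2% in LNCaP:C42 siSCR, so that the order of EGFR and ERBB2 under R1881 turned.

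**Figure D4:**
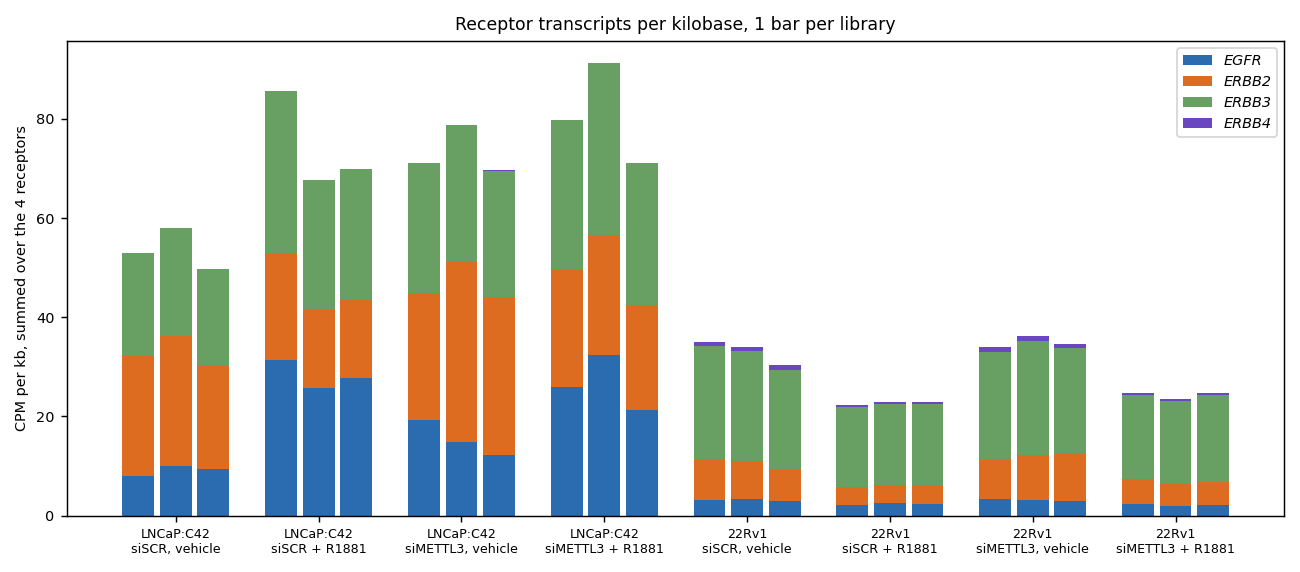
CPM per kb of exon length of EGFR, ERBB2, ERBB3 and ERBB4 (stacked, y axis from 0) in each of the 24 libraries, 1 bar a library, grouped by condition on the x axis. The EGFR segment is larger in the R1881 than in the vehicle bars of LNCaP:C42, and ERBB3 is the largest segment in every 22Rv1 bar.

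Depletion of METTL3 was compared with siSCR under vehicle and under R1881 in each line. In LNCaP:C42 with vehicle, EGFR was the 1 member of 6 tested that was called, against 1.2% of all genes. It had 104, 131 and 121 CPM with siSCR and 250, 191 and 159 CPM with siMETTL3, with no overlap, and rose 1.67-fold (log2 0.74 ± 0.17, adjusted p = 0.0373). The call rested on single libraries: without siMETTL3 replicate 1, which stood apart and had the highest value, the change was 0.54 and the adjusted p 0.0511. It was also lost without siSCR replicate 1 (adjusted p = 0.177), siSCR replicate 2 (0.0636), siSCR replicate 3 (0.171) or siMETTL3 replicate 2 (0.118), whereas each of these fits gave a change between 0.54 and 0.81. A fit that blocked on replicate number gave 0.72 (adjusted p = 0.0529). ERBB2 had 265, 375 and 329 CPM with siMETTL3 (0.38 ± 0.14 over siSCR, adjusted p = 0.19) and ERBB3 had 227, 238 and 221 CPM (0.33 ± 0.10, adjusted p = 0.118). ERBB3 was higher in every siMETTL3 than in every siSCR library, ERBB2 was not, and neither passed. HBEGF gave 0.32, ERRFI1 0.07 and TGFA 0.04.

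With R1881 in LNCaP:C42, edgeR called 0 of the 6 members, against 0.7% of all genes, 1 had an unadjusted p under 0.05, as did 28.6% of all genes, and DESeq2 also called 0. That 1 was ERBB2, with 224, 164 and 163 CPM with siSCR and 245, 251 and 218 CPM with siMETTL3 (0.38 ± 0.14, adjusted p = 0.111); without siSCR replicate 1, which stood apart, the change was 0.52 (adjusted p = 0.0195), under 1.5-fold. EGFR gave -0.09 (95% interval -0.44 to 0.26). The test of whether siMETTL3 changed the response to R1881, which is also the test of whether the knockdown effect differed between treatments, called 0 of 6 members and 0% of all genes with edgeR, and DESeq2 called 0 members. EGFR was the 1 member with an unadjusted p under 0.05, as 12.4% of all genes were. Its log2 difference was -0.83 ± 0.23 (adjusted p = 0.306 by edgeR), and it was called with no filter on low counts (-0.84, adjusted p = 7.48e-05). That setting hardly moved the estimate, and the share of all genes it called is not given here. Without the libraries that stood apart the EGFR difference was -0.78 (siSCR R1881 replicate 1 left out) and -0.65 (siMETTL3 vehicle replicate 1 left out), with adjusted p of 0.185 and 0.419.

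In 22Rv1 with vehicle, edgeR called 0 of 9 members, against 0.202% of all genes, 1 had an unadjusted p under 0.05, as did 14.6% of all genes, and DESeq2 called 0. The 1 was ERBB2, with 83.7, 79.4 and 67.3 CPM with siSCR and 82.9, 94.6 and 98.2 CPM with siMETTL3 (0.26 ± 0.09, adjusted p = 0.207). EGFR had 42.1, 42.4 and 37 CPM against 44, 40.4 and 37.3 CPM, and the 95% interval of its log2 change ran from -0.20 to 0.19. With R1881 in 22Rv1, TGFA was the 1 member of 9 called, against 3.29% of all genes; 3 had an adjusted p under 0.05, as did 16.2% of all genes. TGFA had 1.83, 1.5 and 2.18 CPM with siSCR and 2.62, 3.46 and 3.05 CPM with siMETTL3, with no overlap (1.63-fold, log2 0.71 ± 0.21, adjusted p = 0.0292). That call was lost without siSCR replicate 1 (adjusted p = 0.0713) or 2 (0.128) and without siMETTL3 replicate 1 (0.0534), 2 (0.113) or 3 (0.0656), at changes between 0.58 and 0.80. ERBB2 (36.9, 37.2 and 36.4 against 52.4, 44.6 and 48.5 CPM, 0.38 ± 0.10, adjusted p = 0.0127) and AREG (39.2, 36.1 and 36.7 against 46.3, 42.3 and 52.5 CPM, 0.32 ± 0.10, adjusted p = 0.0286) had no overlap and passed the adjusted p but not 1.5-fold. The test of whether siMETTL3 changed the R1881 response in 22Rv1 called 0 of 9 members, against 0.0168% of all genes, with edgeR and 0 with DESeq2; 1 member had an unadjusted p under 0.05, as did 6.16% of all genes. That was AREG, with a log2 difference of 0.43 ± 0.13 (adjusted p = 0.802 by edgeR).

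**Figure D5:**
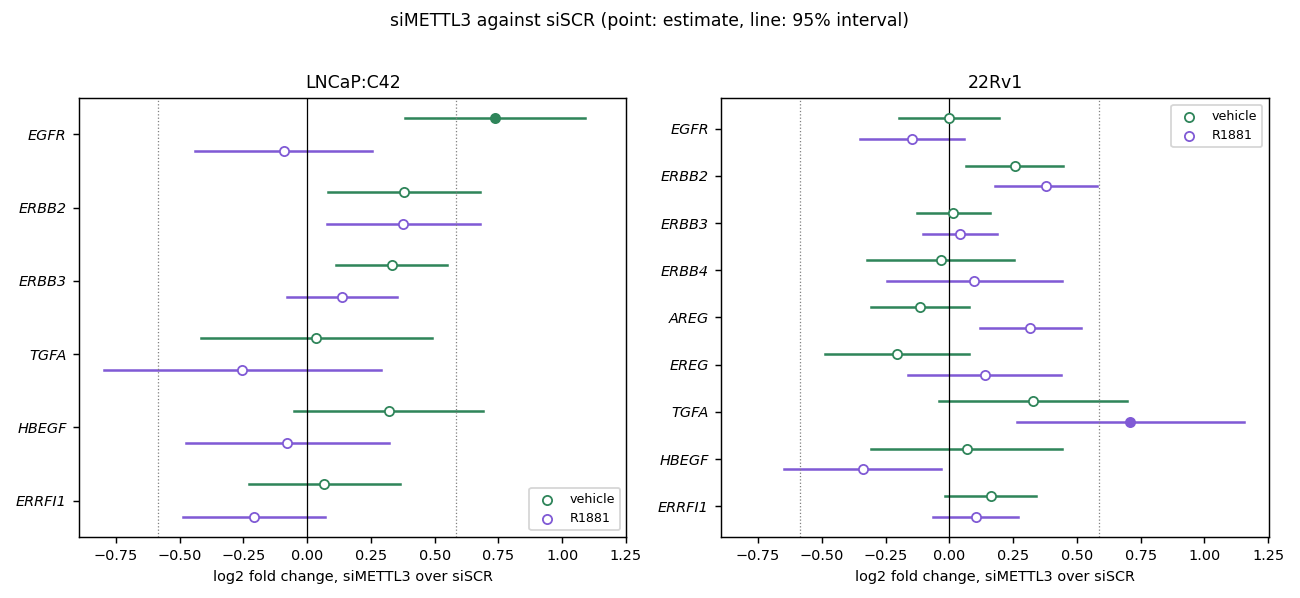
Log2 fold change of siMETTL3 over siSCR (x axis) for the members tested in each line (rows), with 95% intervals from edgeR's quasi-likelihood fit, vehicle in green and R1881 in purple; filled points were called and dotted lines mark 1.5-fold. EGFR with vehicle in LNCaP:C42 and TGFA with R1881 in 22Rv1 are the 2 filled points.

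Between lines, the knockdown effect with vehicle differed for 0 of the 9 members tested, against 0.458% of all genes, by edgeR; ERBB4, AREG and EREG had too few counts in LNCaP:C42 to be read. A total of 2 had an unadjusted p under 0.05, as did 11.5% of all genes: EGFR (22Rv1 minus LNCaP:C42, -0.76 ± 0.20, adjusted p = 0.0918) and ERBB3 (-0.33 ± 0.12, adjusted p = 0.244). DESeq2 called 1, EGFR (-0.75, adjusted p = 0.037). Without siMETTL3 vehicle replicate 3 of LNCaP:C42 edgeR called EGFR as well (-0.89, adjusted p = 0.021), and without replicate 1 of that group, which stood apart, the difference was -0.54 (adjusted p = 0.218).

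A further 76 genes of the pathway were counted in 7 lists: other ligands, ligand release, adaptors, receptor turnover and negative regulation, the RAS-ERK cascade, the PI3K-AKT branch and genes induced by growth factors. With siSCR, R1881 raised 9 and lowered 4 of the 68 tested in LNCaP:C42 (median log2 change 0.15 against -0.03 over all genes) and raised 7 and lowered 5 of the 72 tested in 22Rv1 (median 0.01 against 0.00). These 13 of 68 and 12 of 72 stand beside 15.1% and 13.8% of all genes. With siMETTL3 it raised 5 and lowered 4 in LNCaP:C42, beside 10.6% of all genes, and raised 8 and lowered 2 in 22Rv1, beside 13.5%. All 4 shares of the lists are near those of all genes. Without the libraries that stood apart, R1881 raised 9 and lowered 4 of 69 in LNCaP:C42 siSCR, beside 14.6% of all genes, and raised 6 and lowered 4 of 68 with siMETTL3, beside 10.3%. Of the 11 genes of the RAS-ERK cascade, 0 were called in LNCaP:C42 and KSR1, a scaffold, was the 1 called in 22Rv1 siSCR (-0.80 ± 0.24, adjusted p = 0.0122), beside 15.1% and 13.8% of all genes with siSCR. Of the 6 genes of ligand release, ADAM17, the main protease that frees AREG, TGFA and HBEGF, rose in 22Rv1 with siSCR (0.76 ± 0.08) and with siMETTL3 (0.63 ± 0.08), and 0 were called in LNCaP:C42; the shares of all genes beside these are those above.

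Receptor turnover and negative regulation, the class of ERRFI1, held 5 genes that rose and 1 that fell with R1881 in LNCaP:C42 siSCR, of 17 tested, beside 15.1% of all genes, and 2 that rose and 1 that fell in 22Rv1 siSCR, of 19 tested, beside 13.8%. LRIG1, a membrane protein that promotes loss of ERBB receptors, rose in LNCaP:C42 from 28.4 ± 1.14 to 134 ± 21.7 CPM (log2 2.22 ± 0.14, adjusted p = 1.56e-08) and was at 9.52 ± 1.85 and 9.3 ± 1.19 CPM in 22Rv1. The lines differed in this response by -2.27 ± 0.21 (adjusted p = 6.61e-09). DUSP4, an ERK phosphatase, rose in LNCaP:C42 (1.77 ± 0.20) and the relative LRIG3 fell (-0.75 ± 0.13). SPRY2, an inhibitor of receptor signalling to ERK, rose in LNCaP:C42 siSCR (0.82 ± 0.24) and in 22Rv1 (1.00 ± 0.10 with siSCR and 0.70 ± 0.10 with siMETTL3), whereas the ERK phosphatase DUSP6 fell in 22Rv1 (-0.60 ± 0.10 and -0.64 ± 0.10). Without LNCaP:C42 siSCR R1881 replicate 1, LRIG1 gave 2.10, DUSP4 1.92, SPRY2 0.83 and LRIG3 -0.75, all still called, and the difference between lines in LRIG1 was -2.21.

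MTOR, of the PI3K-AKT list, and PHLDA1, of the list of growth-factor-induced genes, rose with R1881 in all 4 comparisons of line and siRNA: MTOR by 1.07, 1.12, 0.81 and 0.64 and PHLDA1 by 1.51, 1.37, 1.96 and 1.41 on the log2 scale, in the order LNCaP:C42 siSCR and siMETTL3, then 22Rv1 siSCR and siMETTL3. Without the libraries that stood apart, the LNCaP:C42 values were 1.05 and 1.17 for MTOR and 1.71 and 1.14 for PHLDA1, all called. Between the lines at rest, 9 of the 11 growth-factor-induced genes tested were higher and 0 lower in 22Rv1, beside 31.2% and 27.9% of all genes, with a median log2 difference of 3.09 against 0.03 over all genes. CCND1, cyclin D1, was at 375 ± 8.47 CPM in LNCaP:C42 and 3184 ± 26.2 CPM in 22Rv1, and EGR1, an immediate early factor, at 1.85 ± 0.0708 and 29.8 ± 3.83 CPM. Under R1881 with siSCR, without the LNCaP:C42 library that stood apart, 8 of these 11 genes were higher and 0 lower. All 7 lists together had 28 higher and 15 lower of 73, beside 57.3% of all genes called. Higher and lower were 3 and 1 for other ligands, 2 and 3 for ligand release and 5 and 2 for adaptors. They were 9 and 3 for receptor turnover and negative regulation, 0 and 3 for RAS-ERK and 1 and 3 for PI3K-AKT. Of the lists, the knockdown called FOS (2.80 ± 0.55, adjusted p = 0.0211) in LNCaP:C42 with vehicle, beside 1.2% of all genes. In LNCaP:C42 with R1881 it called PIK3R1 (-0.60 ± 0.13, adjusted p = 0.0482), beside 0.7%. In 22Rv1 it called JUNB (-0.64 ± 0.12, adjusted p = 0.0116) with vehicle, beside 0.202%, and STUB1 (0.67 ± 0.16, adjusted p = 0.00804) with R1881, beside 3.29%. FOS had 0.347 to 1.02 CPM with siSCR and 2.41 to 6.99 CPM with siMETTL3 in that comparison. Without the library that stood apart in each, FOS gave 2.51 (adjusted p = 0.0298) and PIK3R1 -0.75 (adjusted p = 0.00611). The count of list genes called for the knockdown in LNCaP:C42 with R1881 went from 1 to 6, 4 higher and 2 lower, as the share of all genes went from 0.7% to 8.89%.

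Finally, the patterns of the members that were at 1 CPM or more in both lines were set beside those of 12879 genes by Pearson correlation of log2(CPM + 1) over the 24 libraries after the mean of each line was taken off. These libraries share treatments and sequencing, and the values are a description with no test. ERRFI1 was most like FKBP5, the androgen-induced co-chaperone (r = 0.993), MBOAT2 (0.990) and TBC1D8 (0.988). EGFR was most like CRISPLD2 (0.973), FAM110C (0.954) and the kallikrein KLK1 (0.940), ERBB2 like IRX3 (0.960), BCAM (0.958) and CLSTN3 (0.956), and ERBB3 like MAGED1 (0.961), SCD (0.957) and SSPOP (0.946). TGFA was most like SEMA3C (0.932) and HBEGF most like TMCO3 (0.931). Among the members themselves, EGFR and ERBB3 ran together (0.837), and ERRFI1 ran against TGFA (-0.851) and ERBB2 (-0.805).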

How the data were processed

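RNA-seq was performed by the study on LNCaP:C42 and 22Rv1 cells, 3 libraries for each of 8 groups. Per the submitters' processing notes, Trim Galore, cutadapt and FastQC served for trimming and quality checks and STAR for alignment; featureCounts 1.5.0-p1, on Ensembl 83 gene models of GRCh38 and without strand per the file headers, gave the raw counts per gene that the authors deposited for each library. Each library's own count column was used, and 56558 of the 60675 gene IDs were paired with a symbol.

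Counts were tested with edgeR 4.0.16 (quasi-likelihood, TMM scaling, filterByExpr with a count minimum of 10) in R 4.3.3, on the 12 libraries of a line or, between lines, on all 24, with Benjamini-Hochberg adjustment over all genes tested. Main effects were called at an adjusted p under 0.05 and at least 1.5-fold, and differences between effects at an adjusted p under 0.05. DESeq2 1.42.0, the tool the study used, was run as an alternative. Alternatives were DESeq2, RLE scaling, library size alone, no filter, a filter of 10 counts in each library, a block on replicate number, the compared libraries alone, no fold threshold, each library left out in turn and, added after seeing the data, the MANE Select length and the pathway lists without the LNCaP:C42 libraries that stood apart. The fits were tested on simulated data in which 200 genes were changed by 1 on the log2 scale, with calls by adjusted p alone. For R1881, edgeR recovered 86% in LNCaP:C42 siSCR (16435 genes) and 90.5% in 22Rv1 siSCR (17865 genes). For the knockdown with vehicle these were 84.5% and 93%, and for the interaction 67% and 81%. The R1881 response difference between the lines gave 68%. Of the genes called, 5.49%, 7.18%, 3.43%, 4.62%, 9.46%, 5.81% and 8.11% were false, in the same order.

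Replicate numbers did not pair the libraries, since same-numbered libraries did not deviate together (mean r of -0.0173 in LNCaP:C42 and -0.01 in 22Rv1 over 18 pairs each). No pair of libraries of a group differed by less than sampling noise. The set of members, the pathway lists and the tests were proposed with earlier results of these data known. Named were all 10 members, METTL3 and 3 androgen targets as checks (another is not reported here), genes of the lists that were called and had a mean of at least 1 CPM in the line, and the 3 genes most like each member, of which fewer are printed for TGFA and HBEGF. Motifs were counted on both strands.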

Additional observations from a re-analysis of the deposited data

Results flagged for a closer look

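The androgen response of 4 of the 6 members with counts in both lines differed between the lines, beside 16.8% of all genes, which were not cut in this way. The difference itself was tested with siSCR by edgeR's quasi-likelihood test, and these are the results a reader may want to look at again. In 22Rv1 minus LNCaP:C42 on the log2 scale they were -2.05 for EGFR (adjusted p = 3.19e-08), 1.94 for HBEGF (adjusted p = 8.73e-07), -0.87 for ERBB3 (adjusted p = 8.27e-06) and -0.65 for ERBB2 (adjusted p = 0.0119). For EGFR and ERBB3 every LNCaP:C42 library was higher with R1881 than any with vehicle, and every 22Rv1 library was lower. For HBEGF the 3 libraries of 22Rv1 with R1881 lay above all 3 with vehicle. In LNCaP:C42 the R1881 libraries lay below the vehicle libraries, but narrowly, at no more than 5.63 against no less than 5.69 CPM. That change was not called (-0.47, adjusted p = 0.073 by edgeR). The share of all genes with ranges apart was not counted. For ERBB2 the vehicle and R1881 ranges overlapped in LNCaP:C42 and were apart in 22Rv1. The groups held 3 libraries each, so that single libraries were not tested for standing apart by value.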

How the results depend on the processing

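Single-gene values under other settings kept their direction and their side of the threshold in 651 cases, while 17 reversed, 6 passed and 4 were lost; with 1 library left out, 699 kept both, 42 reversed, 3 passed and 12 were lost. Every reversal was of a difference that had not passed its test. The cause of these changes was not tested, apart from those that follow from how a setting is made.

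With the adjusted p alone, 5 members instead of 3 passed for R1881 in LNCaP:C42 siSCR, 8 instead of 5 for R1881 in 22Rv1 siMETTL3 and 3 instead of 1 for the knockdown in 22Rv1 with R1881. For the knockdown in LNCaP:C42 with vehicle, the fit with only the libraries compared called 0 members instead of 1 (EGFR 0.74, adjusted p = 0.0781), and leaving out 1 library gave 0 to 1; for the knockdown in 22Rv1 with R1881 that range was 0 to 1 too. Without a filter on low counts, EGFR passed for the interaction in LNCaP:C42 (1 member instead of 0; -0.84, adjusted p = 7.48e-05) and for the knockdown difference between lines (1 instead of 0; -0.75, adjusted p = 9.05e-05), and DESeq2 also called 1 there; leaving out 1 library gave 0 to 1. The shares of all genes called without that filter are not given here. With at least 10 counts in every library, 4 instead of 7 members were called between the lines with vehicle and 4 with R1881, because ERBB4, AREG and EREG left the test. The 7 include these genes, which passed the usual filter only through 22Rv1 and are given above with no test. In the main fits 59.2% of all genes were called with vehicle and 60.1% with R1881.

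Replicate numbers did not pair the libraries. In LNCaP:C42, 6 of 18 same-numbered pairs had a correlation of their deviations over 0.1. With the block on replicate number, the knockdown in LNCaP:C42 with vehicle called 0 members and EREG came under 1.5-fold for R1881 in 22Rv1 siSCR (-0.58, adjusted p = 0.00444); TGFA turned to 0.0627 and 0.0583 between the lines with vehicle and with R1881, and no other call changed.

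Reversed values on the log2 scale were as follows. ERBB2 gave 0.0345 for the interaction in LNCaP:C42 with library size alone. EGFR gave 0.0016 with DESeq2 and with RLE factors, 0.0151 with library size alone, 0.0182 with no filter and 0.0002 with 10 counts in every library for the knockdown in 22Rv1 with vehicle. TGFA gave 0.0378 with library size alone and 0.0140 with 10 counts in every library between the lines with vehicle, 0.0899 with library size alone between them with R1881, and 0.0520 with library size alone and 0.0021 with no filter for the response difference. ERRFI1 gave -0.0466 with DESeq2, -0.0465 with RLE factors, -0.0231 with 10 counts in every library and -0.0080 with only the libraries compared for the response difference.

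Leaving out 1 library took these differences across 0. For the knockdown in LNCaP:C42, TGFA ran from -0.1011 to 0.1637 and ERRFI1 from -0.0883 to 0.1807 with vehicle, and EGFR from -0.2739 to 0.0419 and HBEGF from -0.1988 to 0.0216 with R1881; ERBB2 ran from -0.1351 to 0.1383 for the interaction. For the knockdown in 22Rv1, EGFR ran from -0.0702 to 0.0521, ERBB3 from -0.0482 to 0.0678 and ERBB4 from -0.1360 to 0.0769 with vehicle, and ERBB4 from -0.0509 to 0.1930 with R1881; for the interaction, ERBB3 ran from -0.0192 to 0.0916, ERBB4 from -0.0168 to 0.2351 and ERRFI1 from -0.1332 to 0.0506. Between the lines, TGFA ran from -0.2081 to 0.0656 with vehicle and from -0.2988 to 0.0586 with R1881. In the response difference, TGFA ran from -0.2301 to 0.1286 and ERRFI1 from -0.1066 to 0.0369, and in the knockdown difference, ERBB2 from -0.2390 to 0.0034 and ERRFI1 from -0.0253 to 0.2610.

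Over all genes, the knockdown in LNCaP:C42 with R1881 called 115 genes, 1497 without siSCR replicate 1 and 1 without siMETTL3 replicate 1, and with vehicle 197 genes, 339 without siMETTL3 replicate 1 and 0 without siSCR replicate 3. With library size alone the median of all genes moved from -0.0277 to -0.146 for R1881 in LNCaP:C42 siSCR and from 0.0332 to 0.182 between the lines with vehicle. Depth limited ERBB4, AREG and BTC in LNCaP:C42 and NRG1 in both lines, where 1 count was worth 0.0421 to 0.0646 CPM and the floor of 3 counts 0.126 to 0.194 CPM.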

Other observations

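Other ligands of the family showed the same split between the lines as AREG and EREG. BTC, whose gene lies on chromosome 4 near both, had 3505 counts over the 12 libraries of 22Rv1 and 30 over those of LNCaP:C42, a ratio of 108 (95% counting interval 75.6 to 161). EPGN, a low-affinity EGFR ligand of the same cluster, had 81 counts in 22Rv1 and 0 in LNCaP:C42, at least 25-fold higher against a floor of 3 counts over the group. EGF, on the same chromosome but far from that cluster, went the other way, with 16 ± 0.857 CPM in LNCaP:C42 and 0.604 ± 0.149 CPM in 22Rv1 with siSCR and vehicle (log2 difference -4.71 ± 0.28, adjusted p = 2.66e-14 by edgeR).

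In 22Rv1 with siSCR, BTC had 18.9 ± 2.1 CPM with vehicle and 12.8 ± 0.389 CPM with R1881, a change in the direction of AREG and EREG that passed the adjusted p (0.000795) and stayed under 1.5-fold. In LNCaP:C42 with siSCR, EGF had 16 ± 0.857 CPM with vehicle and 23.4 ± 3.88 CPM with R1881, which did not pass (adjusted p = 0.0552).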
